A study of Homo sapiens with 4 samples.

Results

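Autophagy receptors are proteins that tether cargo to the growing autophagosome, and 9 genes that encode such receptors or their adaptors are described here: SQSTM1, NBR1, WDFY3, NCOA4, BNIP3, PHB2, RETREG1, SEC62 and RTN3. They were chosen by the called peaks themselves, because each has a peak of the transcription factor SPIB in or near it in suspended cells, so the presence of those peaks is a description and was not tested. They are 9 of 20037 protein-coding genes on chromosomes 1 to 22, X and Y. A peak was assigned to a gene where its summit, the position with most tags, lay in the RefSeq span of the gene or within 5 kb of it.

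The data are chromatin immunoprecipitation with sequencing (ChIP-seq) from H1703, an established human lung squamous carcinoma line, made to overexpress SPIB, a DNA-binding protein of the ETS family that normally acts in B lymphocytes and plasmacytoid dendritic cells. Immunoprecipitation used an antibody to the FLAG tag (M2). The groups were suspended cells, with 1 SPIB ChIP and 1 input library, and attached cells, with 1 of each. All 4 libraries come from SPIB-overexpressing cells, and the labels name no line without the added factor. The treatment text of the labels gives 24 h of suspension for every library, attached ones included, and the condition label was used to separate them. The sources used here give neither the promoter that drives SPIB nor the number of clones. No RNA was measured, so neither the cell type nor the activity of any gene could be checked.

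The filtered ChIP libraries held 20766909 tags in suspended and 21108364 tags in attached cells. The inputs they were called against were less alike, with 21437074 tags in suspended and 15878452 tags in attached cells. The part of input depth in the number of peaks was not tested. The authors' lists held 9024 suspended and 462 attached peaks. The median peak held 15 tags in suspended and 18 tags in attached cells, and no peak in either list had fewer than 8. The authors' false discovery rate (FDR), which the peak caller obtains by exchanging ChIP and input, was at most 6.42% in the suspended list, and it was 100% for 305 (66.0%) of the attached peaks. With 1 library per group no p-value between conditions is given. Poisson and binomial intervals below are exact 95% intervals and cover counting error only. SPIB itself had 1 suspended peak of 37 tags and no attached peak.

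Selective autophagy works by receptors that bind a cargo on one side and the lipid-linked ATG8 proteins (LC3 and GABARAP) of the autophagosome membrane on the other. SQSTM1 and NBR1 bind ubiquitin-tagged proteins, other receptors sit in the membrane of a mitochondrion or of the endoplasmic reticulum, and NCOA4 holds ferritin. Loss of contact with the substrate is a known trigger of autophagy in epithelial cells. ETS factors such as SPIB recognise DNA with the core GGAA.

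The 9 genes held 13 suspended peaks and no attached peak. PHB2, SQSTM1, NBR1 and RETREG1 held 2 each, and the other 5 genes held 1 each. Among all protein-coding genes 28.6% had a suspended peak in the gene or within 5 kb, and 1.86% had an attached one. Against 1.86%, a count of 0 of 9 attached genes (upper bound 33.6%) is not a result about these genes. The nearest attached peak lay 50492 to 9055595 bp from the gene, with a median of 2712701 bp. Near the 5 kb limit, the assigned peak farthest outside its gene lay 1890 bp from the PHB2 span, and the closest peaks beyond the limit lay 7815 bp from RETREG1 (53 tags) and 10252 bp from SQSTM1 (44 tags).

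The peaks differed widely in size and little in tag density. Tags per peak ran from 10 to 111 with a median of 32, and widths from 206 to 1369 bp with a median of 483 bp. Per 100 bp of peak, tags ran from 4.66 to 8.11. Of the 13 peaks, 12 were wider than the median suspended peak of 252 bp, and 6 were at least 600 bp wide, a width that 9.53% of all suspended peaks reach. The width of 600 bp was picked after the values were seen. In the whole suspended list, peaks within 1 kb of a protein-coding start had a median width of 376 bp, and the others 219 bp. Of the 13 peaks, 6 had a summit within 1 kb of a start of their own gene, so the whole list is not a like comparison.

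**Figure D1:**
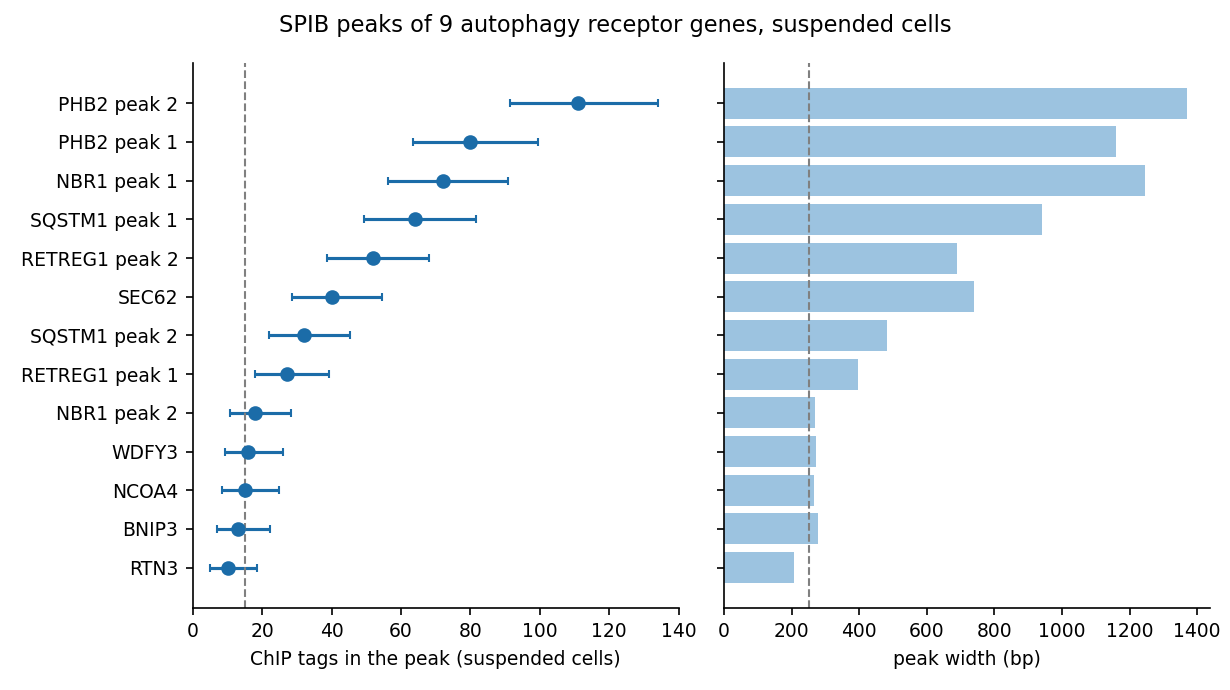
ChIP tags with exact 95% Poisson intervals (left) and peak width in bp (right) for the 13 suspended peaks of the 9 genes, sorted by tags. Dashed lines mark the median suspended peak (15 tags, 252 bp). The peaks of most tags are also the widest, from 111 tags in 1369 bp at PHB2 down to 10 tags in 206 bp at RTN3.

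The promoter windows show part of the DNA under some of these peaks. RefSeq windows run from 250 bases before to 50 after an annotated start (build GRCh38.p14). They were found for 8 of the 9 genes, 14 windows in all, and WDFY3 is named without a window. Shown first are the windows of the 5 genes where a suspended peak overlaps a window, 1 for each gene. Of the RETREG1 window, 208 of 300 bases lie in the peak, and the other windows shown first lie whole inside one. Only the SEC62 summit lies inside its window, so most marked motifs are not at a summit. Letters are 5′ to 3′ on the strand of the gene, and capitals mark GGAA or its reverse complement TTCC.
SQSTM1, second start, chr5:179806759-179807058, plus strand: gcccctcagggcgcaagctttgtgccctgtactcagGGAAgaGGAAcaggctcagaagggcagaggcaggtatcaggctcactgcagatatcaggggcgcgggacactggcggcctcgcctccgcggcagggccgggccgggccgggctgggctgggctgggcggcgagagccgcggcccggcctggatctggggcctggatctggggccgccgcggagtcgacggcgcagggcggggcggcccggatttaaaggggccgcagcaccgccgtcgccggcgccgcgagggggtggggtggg
NBR1, second start, chr17:43170964-43171263, plus strand: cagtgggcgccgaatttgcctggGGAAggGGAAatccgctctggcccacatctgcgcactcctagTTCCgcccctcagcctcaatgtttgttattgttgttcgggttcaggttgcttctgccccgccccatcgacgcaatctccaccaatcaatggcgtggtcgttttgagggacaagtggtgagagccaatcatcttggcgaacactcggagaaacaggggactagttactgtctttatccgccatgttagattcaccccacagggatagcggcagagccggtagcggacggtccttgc
PHB2, second start, chr12:6970615-6970914, minus strand: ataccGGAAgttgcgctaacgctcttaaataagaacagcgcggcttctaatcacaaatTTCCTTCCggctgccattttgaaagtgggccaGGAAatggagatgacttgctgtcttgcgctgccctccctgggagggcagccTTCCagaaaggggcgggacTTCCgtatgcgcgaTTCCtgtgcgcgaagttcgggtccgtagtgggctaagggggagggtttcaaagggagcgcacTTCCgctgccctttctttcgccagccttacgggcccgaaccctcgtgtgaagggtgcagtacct
RETREG1, first start, chr5:16616948-16617247, minus strand: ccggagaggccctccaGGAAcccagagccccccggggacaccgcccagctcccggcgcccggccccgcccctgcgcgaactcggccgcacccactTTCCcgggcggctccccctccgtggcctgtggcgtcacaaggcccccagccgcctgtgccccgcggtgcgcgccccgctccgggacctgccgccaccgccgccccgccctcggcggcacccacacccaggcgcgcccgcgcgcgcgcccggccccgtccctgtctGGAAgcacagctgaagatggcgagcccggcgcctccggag
SEC62, chr3:169966557-169966856, plus strand: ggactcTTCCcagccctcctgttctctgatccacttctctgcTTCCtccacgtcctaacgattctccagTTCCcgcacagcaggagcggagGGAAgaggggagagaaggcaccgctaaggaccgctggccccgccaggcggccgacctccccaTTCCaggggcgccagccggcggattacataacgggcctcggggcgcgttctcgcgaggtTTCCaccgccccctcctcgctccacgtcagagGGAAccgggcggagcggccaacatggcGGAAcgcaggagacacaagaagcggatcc
For contrast, the window at the third SQSTM1 start, which no peak touches, reads as follows.
SQSTM1, start 3, chr5:179820655-179820954, plus strand: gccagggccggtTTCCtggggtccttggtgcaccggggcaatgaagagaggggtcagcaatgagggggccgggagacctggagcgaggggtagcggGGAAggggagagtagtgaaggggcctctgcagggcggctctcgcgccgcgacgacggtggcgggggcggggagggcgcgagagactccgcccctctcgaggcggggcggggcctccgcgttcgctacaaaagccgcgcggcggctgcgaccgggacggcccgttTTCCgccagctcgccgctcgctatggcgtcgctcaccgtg

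The core motif was too common to separate windows under peaks from others. GGAA, on either strand, was in all 14 windows, with 1 to 10 matches, and in 95.5% of all 35116 RefSeq promoter windows. The longer CGGAAG, shared by many ETS factors, contains GGAA. It was found on either strand in 4 of the 14 windows, at the first start of SQSTM1, the first start of NBR1 and both starts of PHB2, against 19.5% of all windows. The PHB2 starts are 89 bp apart and their windows share 211 bases, so matches there are largely the same sites counted for both. The PHB2 window printed above held 4 matches to it, with first bases at -246, -189, -91 and -15 from the start. GAGGAA, the core of the PU box bound by SPIB and its relative SPI1, also contains GGAA. It was in 6 of the 14 windows, against 27.9% of all windows, with 3 matches at the first NBR1 start. Of the 5 windows that lie whole inside a suspended peak, 2 held CGGAAG (both of PHB2) and 2 held GAGGAA (SQSTM1 and SEC62). Across the genome, the 575 promoter windows that lie whole inside a suspended peak held CGGAAG in 41.9% and GAGGAA in 38.3%. Their median GC content was 66.0%, against 58.7% for all windows, and the part of GC content in these shares was not tested. No stretch of 50 bases, the tag size, in the 14 windows recurred in a RefSeq promoter window elsewhere. This check could not see copies outside promoter windows. The pseudogenes BRCA1P1, near NBR1, and FHL1P1, at SEC62, have no such window, and peak sequence outside the windows was not checked.

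The ubiquitin-binding receptors came first by role. SQSTM1 encodes p62, the receptor that gathers ubiquitin-tagged proteins into bodies taken up by autophagosomes. Its first peak, at chr5:179806548-179807488, held 64 tags (49.3 to 81.7) in 941 bp in suspended cells, and none was called there in attached cells. The authors' FDR of this peak was 0% and its score of 134.64 was the highest of the 13, above 96.9% of suspended peaks. Of the 284 suspended peaks with at least that score, 95 (33.5%) overlapped an attached peak, against 2.35% of all suspended peaks. The SQSTM1 peak did not, like most peaks of that score, and nothing particular to SQSTM1 is read from it. The nearest attached peak to the gene lay 2968625 bp away.

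The SQSTM1 peak sat at an upstream start that faces another gene. RefSeq gives 3 starts for SQSTM1. The peak covered the second, with its summit 311 bp downstream of it, and began 155 bp after the first. It also covered the start of MGAT4B, a glycosyltransferase gene on the opposite strand, with its summit 454 bp upstream of that start. The third SQSTM1 start, 13896 bp downstream of the second, had no peak within 1 kb. A second peak, at chr5:179819075-179819557, lay 1667 bp upstream of it, with 32 tags (21.9 to 45.2) in 483 bp, a fold of 6.07 and an FDR of 3.64%. Which SQSTM1 transcripts begin at which start, and which are made in these cells, was not analysed here.

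NBR1 encodes a receptor of the same domain plan as p62 that acts with it on protein aggregates and peroxisomes. Its first peak, at chr17:43170310-43171556, held 72 tags (56.3 to 90.7) in 1247 bp, with a fold of 4.92 and an FDR of 1.81%. This is the second widest of the 13 peaks, and it covered 5 annotated starts. These are the 2 starts of NBR1, with the summit 170 bp downstream of the second, and on the opposite strand the starts of BRCA1 and of the noncoding genes LOC101929767 and LOC124900391. The BRCA1 start lay 1057 bp from the summit, close to the left edge of the peak. A second, smaller peak at chr17:43172191-43172460 held 18 tags (10.7 to 28.4) in 270 bp, with its summit 1110 bp downstream of the second NBR1 start. Its FDR of 5.36% was the highest of the 13. The pseudogene BRCA1P1 lies within 5 kb of both summits, and the sources used here do not say how tags matching more than 1 place were treated.

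WDFY3 encodes ALFY, a large scaffold that links ubiquitin-tagged aggregates to the autophagy machinery. Its peak was small, with 16 tags (9.15 to 26.0) in 271 bp at chr4:84966788-84967058, a fold of 8.88 and an FDR of 3.09%. The summit lay 250 bp outside the WDFY3 span, and 208 bp downstream of a start of WDFY3-AS2, a noncoding gene that overlaps that end. WDFY3 stood in the emptiest surroundings of the 9 genes, and the next suspended peak was 937721 bp from the gene.

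NCOA4 encodes the receptor that delivers ferritin, the iron store, to the autophagosome. Its peak, at chr10:46004396-46004662, held 15 tags (8.4 to 24.7) in 267 bp, with a fold of 9.86 and an FDR of 3.11%. This peak was at the end of the gene away from its starts. The summit lay 571 bp past the far end of NCOA4 and 775 bp past the far end of TIMM23, a mitochondrial import gene that runs towards it. The nearest start of NCOA4 was 15482 bp away and the other 26106 bp. Among 15842 protein-coding genes with a start in the table, 1.21% had a suspended summit within 1 kb of the far end and of no start, whereas 14.7% had one within 1 kb of a start.

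The mitochondrial receptors contrasted in the size of their peaks. BNIP3, a BCL2-related protein of the outer mitochondrial membrane known for its induction by low oxygen, had 13 tags (6.92 to 22.2) in 279 bp at chr10:131982249-131982527. The fold of 10.43 was the highest of the 13 and the FDR was 4.62%. The summit lay 451 bp upstream of the BNIP3 start, the peak ended 326 bp short of it, and no other gene lay within 5 kb.

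PHB2 encodes prohibitin-2, an inner mitochondrial membrane protein that acts as a receptor once the outer membrane has ruptured. The peak at its start, chr12:6969894-6971262, held 111 tags (91.3 to 134) in 1369 bp, the most tags and the greatest width of the 13. At 8.11 tags per 100 bp it was also the densest, yet its fold of 4.1 was the lowest of the 13, above 1.44% of suspended peaks. The FDR was 0.51%. The peak covered both PHB2 starts, with its summit 303 bp downstream of the second. It also covered the start of EMG1, a ribosome assembly gene on the opposite strand, 552 bp from the summit.

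The other peak assigned to PHB2 had its summit inside the host gene of microRNAs. It lay at chr12:6963281-6964439, with 80 tags (63.4 to 99.6) in 1159 bp, a fold of 4.68 and an FDR of 0.67%. Its summit was 1890 bp past the far end of PHB2 but inside MIR200CHG, 192 bp from the start of that noncoding gene. The same summit lay 338 bp upstream of the start of LOC105369634, a noncoding gene on the strand opposite to MIR200CHG. PTPN6 and SCARNA12 also lay within 5 kb of it. The peak covered the hairpins of miR-200c and miR-141, microRNAs known for keeping cells epithelial by repressing ZEB1 and ZEB2. Both have been printed because the peak spans their genes, and capitals mark the seed, bases 2 to 8 (RefSeq, GRCh38.p14). The seeds differ between these microRNAs, which are therefore listed apart.
hsa-miR-200c-3p, chr12:6963742-6963764, plus strand: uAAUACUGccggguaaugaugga
hsa-miR-141-3p, chr12:6964155-6964176, plus strand: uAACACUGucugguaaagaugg

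The receptors of the endoplasmic reticulum ranged from a broad start peak to a small internal one. RETREG1, also called FAM134B, shapes and removes sheets of the reticulum. Its larger peak, at chr5:16617040-16617727, held 52 tags (38.8 to 68.2) in 688 bp, with a fold of 5.17 and an FDR of 3.31%. The summit lay 252 bp upstream of the first start, and the peak stopped 43 bp short of it, inside the noncoding gene RETREG1-AS1. A second peak lay 19100 bp inside the gene, at chr5:16597813-16598207, with 27 tags (17.8 to 39.3) in 395 bp and an FDR of 4.12%. The second RETREG1 start, within the gene, had its nearest summit 43760 bp away. RETREG1 was the gene closest to an attached peak, one of 32 tags at 50492 bp.

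SEC62, a part of the protein translocation machinery that also marks surplus reticulum for removal during recovery from stress, had 40 tags (28.6 to 54.5) in 741 bp at chr3:169966418-169967158. The fold was 6.94 and the FDR 0.59%. This was the best centred of the start peaks, with its summit 102 bp upstream of the start. It was also the summit that fell inside a printed window, and the nearest GGAA there, on the antisense strand, began 5 bp from it. That window held 8 GGAA matches, against a median of 3 over all promoter windows. How often a match lies that near to any base was not tested, and nothing is read from the distance. The transcribed pseudogene FHL1P1 overlaps the summit.

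RTN3 encodes a reticulon that removes tubules of the reticulum. Its peak was the smallest of the 13, with 10 tags (4.8 to 18.4) in 206 bp at chr11:63738398-63738603, a fold of 9.1 and an FDR of 4.63%. It lay inside the gene, 57079 bp downstream of the start and 21362 bp from the other end, and no other gene lay within 5 kb.

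**Figure D2:**
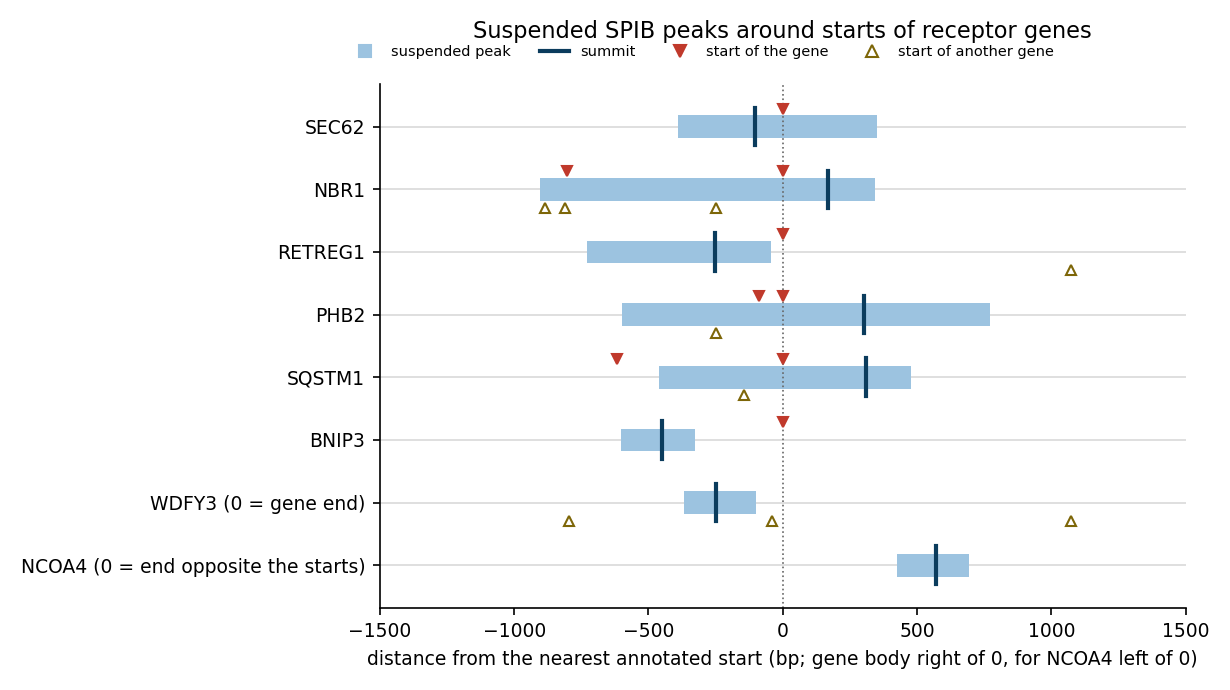
Suspended peaks (bars) and summits (lines) of 8 genes, in bp from the nearest annotated start, for WDFY3 from the gene end and for NCOA4 from the end opposite its starts. Filled triangles mark starts of the gene and open triangles starts of other genes. The peak nearest to 0 is drawn for each gene, and RTN3, whose summit lay 57079 bp from its start, is left out. Peaks at SEC62, NBR1, PHB2 and SQSTM1 span a start, whereas those at RETREG1 and BNIP3 stop short of it.

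Counted together, 8 of the 9 genes had a summit within 1 kb of a gene end, where 13.8% of all protein-coding genes do. Of the 8 genes with annotated starts, 6 had a summit within 1 kb of one (SQSTM1, NBR1, BNIP3, PHB2, RETREG1 and SEC62), against 14.7% of 15842 genes. The 9 genes were chosen by their peaks and most protein-coding genes had none, so neither share over all genes is a like comparison. By the 5 kb rule, 5733 protein-coding genes had a suspended peak. Of those, 2768 had a summit within 1 kb of a gene end. Nothing particular to the receptor genes is read from either count. In 3 of the 6 genes named above the summit lay downstream of the start and in 3 upstream, at a median distance of 277.5 bp. Over the genome, 58.6% of 2317 suspended peaks within 1 kb of a protein-coding start had the summit downstream, at a median distance of 259 bp. The 6 start peaks had a median width of 841 bp and 58 tags, against 376 bp and 23 tags for all 2317, and the BNIP3 peak was the 1 of the 6 below both medians. Starts of other genes lay inside 3 of the 13 peaks (SQSTM1, NBR1 and PHB2). For 4 peaks the nearest annotated start was that of another gene (the MIR200CHG peak, WDFY3, RTN3 and the internal RETREG1 peak). WDFY3 has no start among the windows used, so its place among the 4 was fixed in advance.

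Broad peaks had low fold. The 6 peaks of at least 600 bp had folds of at most 7.12, and the 7 narrower ones of at least 6.07. The same held for the whole suspended list, where the median fold was 5.42 for the 860 peaks of at least 600 bp and 9.54 for the rest. Of the 13 peaks, 10 lay below the median fold of the list (9.1), and 8 lay above its median score (59.12). Fold and score are the authors' values and rank peaks within this list.

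**Figure D3:**
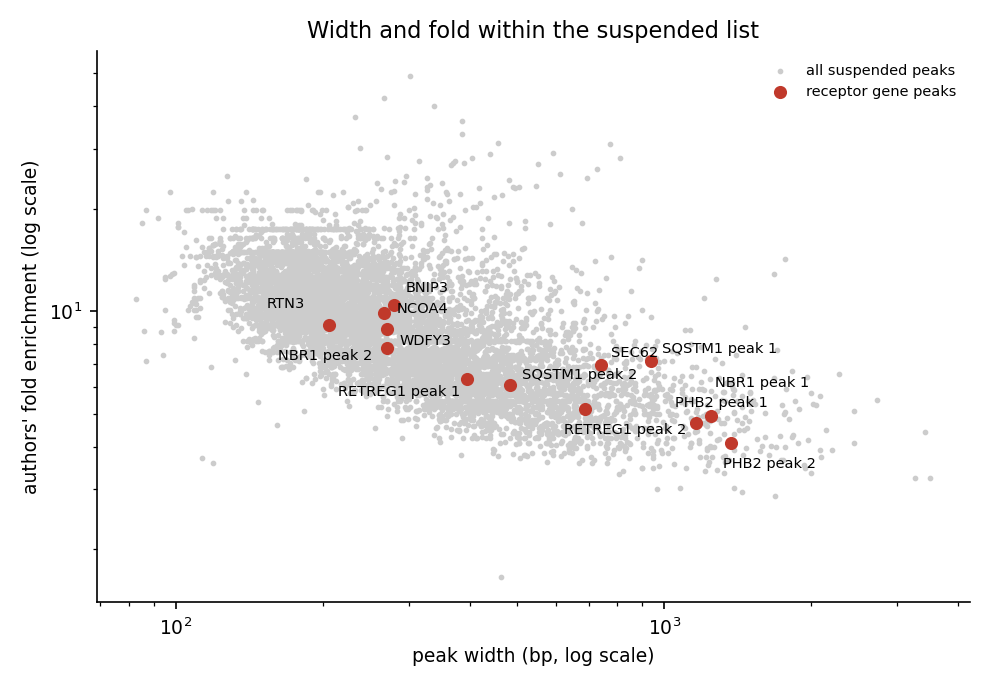
Peak width in bp against the authors' fold enrichment, both on log axes, for 9024 suspended peaks (grey) and the 13 peaks of the receptor genes (red). The receptor peaks lie along the body of the list, from BNIP3 (279 bp, fold 10.43) to the PHB2 start peak (1369 bp, fold 4.1).

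Several of the genes lie where peaks are dense. Counted over the gene and 500 kb on either side, PHB2 had 46.7 suspended peaks per Mb (percentile 99.7 of protein-coding genes), NBR1 had 23.0 (97.9), SQSTM1 14.5 (90.7) and SEC62 13.6 (89.1). NCOA4 (9.75), RETREG1 (9.62), BNIP3 (7.89) and RTN3 (7.42) followed, and WDFY3 had 0.771 (10.8). The median of all protein-coding genes was 3.99. These counts include the peaks the genes were chosen by, so setting them beside all genes in part restates that choice. Without its own peaks PHB2 had 44.8 per Mb, NBR1 21.1 and WDFY3 0. In attached cells 2 of the 9 genes, PHB2 and RETREG1, had any peak within that distance, as did 24.7% of protein-coding genes. DNA copy number and gene activity were not measured, and the part of either in these peaks was not tested.

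**Figure D4:**
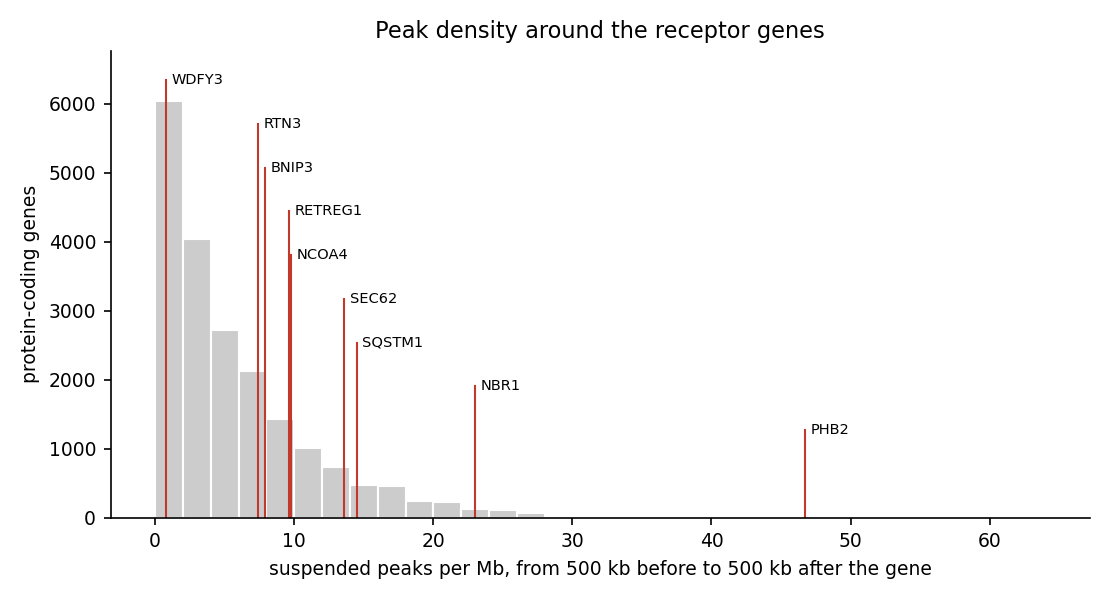
Suspended peaks per Mb around each of 20037 protein-coding genes (grey histogram, bins of 2 peaks per Mb) and around the 9 receptor genes (red lines, whose heights carry no value). PHB2 lies far out in the tail at 46.7, and WDFY3 is in the lowest bin at 0.771.

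Of 20 further receptors, 5 (25.0%, Clopper-Pearson interval 8.66 to 49.1) had a suspended peak and none (0%, upper bound 16.8%) an attached one, against 28.6% and 1.86% of protein-coding genes. The 9 genes were left out of this list because they have peaks, so the share is lower than that of receptor genes as a whole, and nothing about receptors in general is read from it. The largest of these peaks was at PHB1, the partner of PHB2 in the prohibitin ring, with 53 tags (39.7 to 69.3) in 622 bp, an FDR of 0% and its summit 213 bp upstream of the start. NIPSNAP2, a mitochondrial matrix protein that marks damaged mitochondria, had 17 tags (9.9 to 27.2) 626 bp downstream of its start. TRIM16, a protein recruited to damaged lysosomes, had a peak of 18 tags and a fold of 17.56 at a gene end and another of 10 tags outside it. The peaks of BCL2L13 (10 tags) and NIPSNAP1 (12 tags) lay outside their genes, 2247 and 1971 bp from an end, and each was shared with a neighbour (ATP6V1E1 and THOC5). The 15 without a peak included OPTN, CALCOCO2, TAX1BP1, FUNDC1 and BNIP3L, the close relative of BNIP3.

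Among 27 genes of the ATG8 family and of partners of the receptors, 11 (40.7%, 22.4 to 61.2) had a suspended peak and 2 (7.41%, 0.91 to 24.3) an attached one. Both intervals contain the share of all protein-coding genes (28.6% and 1.86%). GABARAP, an ATG8 protein, had 4 suspended peaks of 56 to 119 tags, in a stretch shared with PHF23 and in part with CTDNEP1 and DVL2. At its start the peak held 58 tags (44.0 to 75.0) in 605 bp in suspended cells and 52 tags (38.8 to 68.2) in 480 bp in attached cells. Per 100 bp of peak this is 9.59 tags in suspended and 10.8 tags in attached cells. The peaks were called separately and differ in width, so these values are not like for like, and no difference between conditions is read from them. RTN2, a reticulon like RTN3, had 26 tags near the end away from its starts in suspended cells and 20 tags 538 bp downstream of a start in attached cells, at different sites. The attached peaks of GABARAP and RTN2 had FDRs of 57.98% and 33.72%.

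Of the reticulon genes related to RTN3, RTN4 had 31 tags (21.1 to 44.0) in 350 bp with the summit 92 bp upstream of an internal start, and RTN1 had 8 tags (3.45 to 15.8) inside the gene. FTH1, which encodes the ferritin heavy chain that NCOA4 binds, had 30 tags (20.2 to 42.8) in 496 bp, 903 bp from a gene end. BEST1 and LOC399900 also lay within 5 kb of that summit. The light chain gene FTL had no peak. Further members with a peak included MAP1LC3C (24 tags), FOXO3 (22 tags), ATL1 (16 tags), BNIP1 (13 tags) and TBK1 (8 tags). Other genes shared the peaks of MAP1LC3C (CFL1P4), FOXO3 (LOC124901372) and ATL1 (MAP4K5). No peak was called at MAP1LC3A, MAP1LC3B, GABARAPL1, GABARAPL2, KEAP1, NFE2L2, BECN1 or TFEB.

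**Figure D5:**
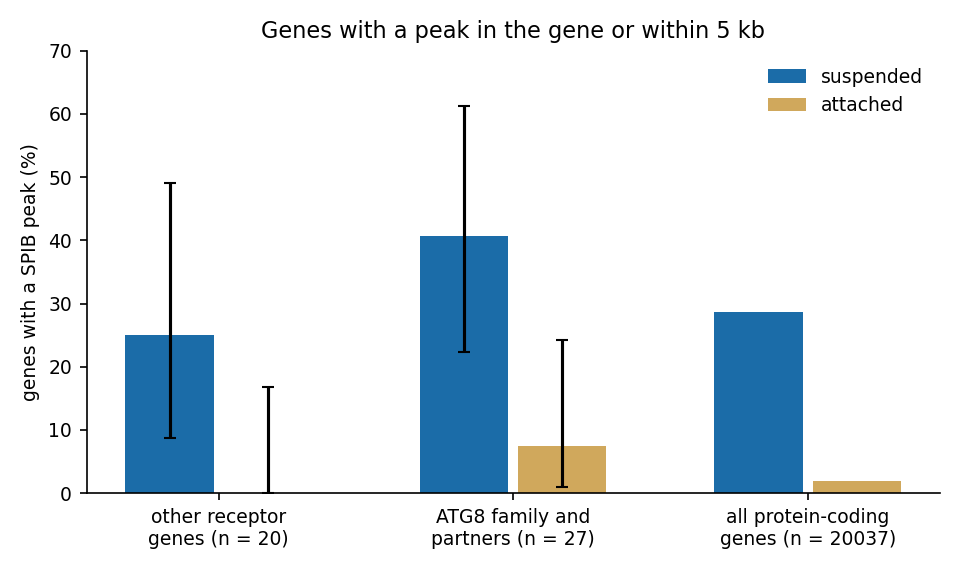
Share of genes (%) with a SPIB peak in the gene or within 5 kb in suspended (blue) and attached (sand) cells, for 20 other receptor genes, 27 genes of the ATG8 family and partners, and 20037 protein-coding genes. Error bars are exact Clopper-Pearson 95% intervals and cover counting error only. The bars of both lists have intervals that contain the share of all protein-coding genes, 28.6% in suspended and 1.86% in attached cells.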

How the data were processed

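ChIP-seq peaks of SPIB were compared between 1 suspended and 1 attached library of H1703 cells. The authors called peaks with MACS 1.4.2, each ChIP against the input from the same condition, at a p cutoff of 1e-05 and with 1 tag kept per position, per the file headers. The modelled fragment length was 63 bp (suspended) and 58 bp (attached), near the tag size of 50 bp, per the file headers. The build was hg38, per the submitters' processing notes, and the sources used here do not name the aligner. The deposited lists give tags as an unnormalized count, the authors' fold as a ratio over local background, the authors' FDR as a percent, and the authors' score, read as -10 times log10 of the p-value from the column's place. Filtered ChIP tags numbered 20766909 (suspended) and 21108364 (attached).

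Summits were set against RefSeq GRCh38.p14 gene spans and promoter windows with Python 3.11.15, numpy 2.4.6, pandas 2.3.3, SciPy 1.17.1 and matplotlib 3.10.9. Peaks were shared where they overlapped by at least 1 bp. A percentile is the share of peaks or genes with a lower value, ties split equally. Counting of genes and motifs was tested on simulated data. All 9 genes, every gene sharing their peaks, and each list member with a peak were to be named, and a gene that this rule names is not reported here. The genes and lists were chosen with earlier results of these data known, and the width limit of 600 bp and the genes named without a peak after values were seen. Alternatives covered distance, peak position, FDR, score, overlap and motif.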

Additional observations from a re-analysis of the deposited data

How the results depend on the processing

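Of 50 alternative values for 10 counts, 43 were within 1.5 times the main value. Some of these could not have moved. A count of 0 cannot rise under a stricter limit, and 9 of 9 genes, chosen by their peaks, cannot change under a looser one. The tally is therefore not read as a measure of stability. With the upper 4512 suspended peaks by score, the receptor genes had 8 peaks in place of 13 (7 of the 9 genes, without BNIP3 and RTN3) and 7 ATG8 family and partner genes had one in place of 11. Within 1 kb of the gene, 3 other receptor genes had a suspended peak in place of 5. At an FDR of at most 5%, 0 ATG8 family and partner genes had an attached peak in place of 2. With 500 bp in place of 1 kb, 5 receptor genes had a summit at a gene end in place of 8, without SQSTM1, NBR1 and NCOA4, and 6 had one within 1 kb of an annotated start. CGGAAG was in 4 and GAGGAA in 6 of the 14 receptor windows, where GGAA was in 14. No receptor gene had an attached peak, and no receptor peak overlapped one, under any alternative tried. Over all suspended peaks 212 (2.35%) overlapped an attached peak, so a count of 0 in 13 is not a result about these genes. No paired analysis was possible because each group has 1 library and no test was made. At 10 to 18 tags (RTN3, BNIP3, NCOA4, WDFY3 and the second NBR1 peak) the Poisson intervals include the median suspended peak of 15 tags, and a site below the calling threshold in attached cells cannot be told from an unbound one.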
